A study of Mus musculus with 6 samples.

Results

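Interleukin receptors are built from a few kinds of membrane chains. A private chain binds the cytokine, and a chain shared between several cytokines completes the signalling complex. Most of them are class I or class II cytokine receptors that signal through JAK kinases and STAT transcription factors, whereas the IL-1 and IL-17 receptors signal through cytoplasmic adapters such as MYD88 and ACT1. Some chains are decoys that bind a cytokine without passing on a signal. In articular cartilage, IL-1 and the cytokines that signal through gp130 are known for driving matrix breakdown, whereas the receptors for IL-3, IL-5, GM-CSF and IL-10 are best known from blood cells.

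The genes described here are the subunits of these receptors. They were taken from the deposited table by symbol: 40 genes whose symbol starts with Il, a number and r (without *Il1rn*, which encodes a secreted antagonist), and 7 genes added by name, namely *Csf2ra*, *Csf2rb*, *Csf2rb2*, *Il6st*, *Lifr*, *Osmr* and *Crlf2*. These 47 genes are part of 17854 in the table. RNA of Tomato+ cells was compared between 3 libraries of MSC-derived cells and 3 libraries of endogenous cells, from 3 mice per group. For the MSC-derived group, Tomato+ MSCs were sorted from the inguinal white fat of *Prrx1-Cre; R26 tdTomato* mice on a C57BL/6 background, injected once and without culture into knee joints of male C57BL/6 mice with osteoarthritis after cruciate ligament transection, and their Tomato+ descendants were sorted from the repaired cartilage. The endogenous group consists of Tomato+ cells sorted from knee cartilage of mice of the same genotype, matched for age and sex, with neither transection nor injection stated. Cre driven by *Prrx1* marks all descendants of limb mesenchyme, osteoblasts included, so the colour alone does not pick out chondrocytes.

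The libraries held between 22060628 and 24881796 expected counts, and a floor of 3 counts corresponds to 0.121 to 0.136 CPM (counts scaled to a common library total), which covers counting error only. Endogenous replicate 1 stood apart from the other 2, with a chi-square per gene of 58.7 and 55.4 against them, compared with 5.43 between those, and with 3449 genes at 0 counts, compared with 1323 and 1375. Both groups are labelled as chondrocytes. All 14 chondrocyte markers tested were lower in the MSC-derived cells, with a summed level of 371.4 to 383.1 FPKM (fragments per kilobase of transcript, scaled to the depth of the library), compared with 14588 to 15676 FPKM in the endogenous cells. All 7 osteoblast markers were lower too (320.2 to 341.6 compared with 18774 to 36824 FPKM). All 12 macrophage markers and all 10 neutrophil markers were higher in the MSC-derived cells. The summed macrophage level was 11321 to 11588 FPKM, compared with 29.8 to 43.6, and the neutrophil level was 119031 to 126756 FPKM, compared with 4129 to 6612. Of the markers tested for eosinophils, basophils and mast cells, 6 of 10 were higher (1317 to 1362 compared with 86.2 to 117.1 FPKM), as were 6 of 9 for T and NK cells (68.9 to 73.2 compared with 1.8 to 3.8 FPKM), 6 of 8 for B cells (206.3 to 224.7 compared with 13.5 to 17.0 FPKM) and 4 of 6 for endothelial cells, with 1 lower (20.8 to 23.1 compared with 22 to 25.1 FPKM). In the MSC-derived cells, *Cd4* alone gave 56.9 to 62 FPKM of the T and NK cell sum. There *Prg2* alone gave 1019 to 1052 FPKM of the eosinophil, basophil and mast cell sum. In the endogenous cells, *Erg*, the 1 endothelial marker that was lower in the MSC-derived cells, alone gave 17.7 to 18.5 FPKM of the endothelial sum. For comparison, 31.3% of all genes tested were higher and 30.3% lower, at the adjusted p of 0.05 used below. Among all these markers, *Tpsb2*, a mast cell tryptase, was the one with 0 counts in every library of a group, the endogenous one. Most of these markers differed between the same groups of libraries as the receptor genes below, and their part in the receptor results was not tested. In bulk RNA, fewer cells of a type and less RNA per cell cannot be told apart.

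The interleukin receptor genes moved in both directions. Of the 47, 36 passed the filter on low counts and were tested with edgeR's quasi-likelihood test. At an adjusted p of 0.05 or less, 17 of these 36 (47.2%) were higher in the MSC-derived cells, where 31.3% of all 14289 genes tested were higher. Another 8 (22.2%) were lower, where 30.3% of all genes tested were lower. The median log2 fold change (log2FC, positive where the MSC-derived cells were higher, and given below with its standard error, SE) was 0.43 over the 36 genes and 0.05 over all genes tested. The counts of both groups were separate for 19 of the 36 with all MSC-derived libraries higher, compared with 39.9% of all genes, and for 8 with the endogenous libraries higher, compared with 31.4% of all genes. Without endogenous replicate 1, 20 of 42 receptor genes tested were higher and 14 were lower, where 37.8% and 38.6% of all genes tested were. The 6 that were then lower in addition were *Il1rl2*, *Il18r1*, *Il11ra1*, *Il11ra2*, *Il20ra* and *Il17re*, and *Il13ra1*, *Il12rb2* and *Il22ra2* were higher in addition. Of these, *Il11ra2*, *Il20ra*, *Il17re* and *Il22ra2* were not tested in the main fit. They passed the filter only through the group where they were then higher, so their direction was set by the filter.

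The summed level of the members rested largely on 3 genes. The FPKM of all 47 summed to 1174.4 to 1198.5, compared with 355.2 to 368.2 in the endogenous cells. FPKM of all genes also summed to more in the MSC-derived libraries (808701 to 813572, compared with 504768 to 573603). In TPM, which sums to the same total in each library, the members reached 1444.2 to 1481.2, compared with 620.5 to 703.8. Without *Il1r2*, *Il10rb* and *Csf2ra*, which were left out after their values were seen, the other 44 summed to 419.3 to 442.3 compared with 283.3 to 305.1 FPKM. In TPM these 44 genes reached 518.5 to 546.6 compared with 494.8 to 604.5, and the groups overlapped.

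**Figure D1:**
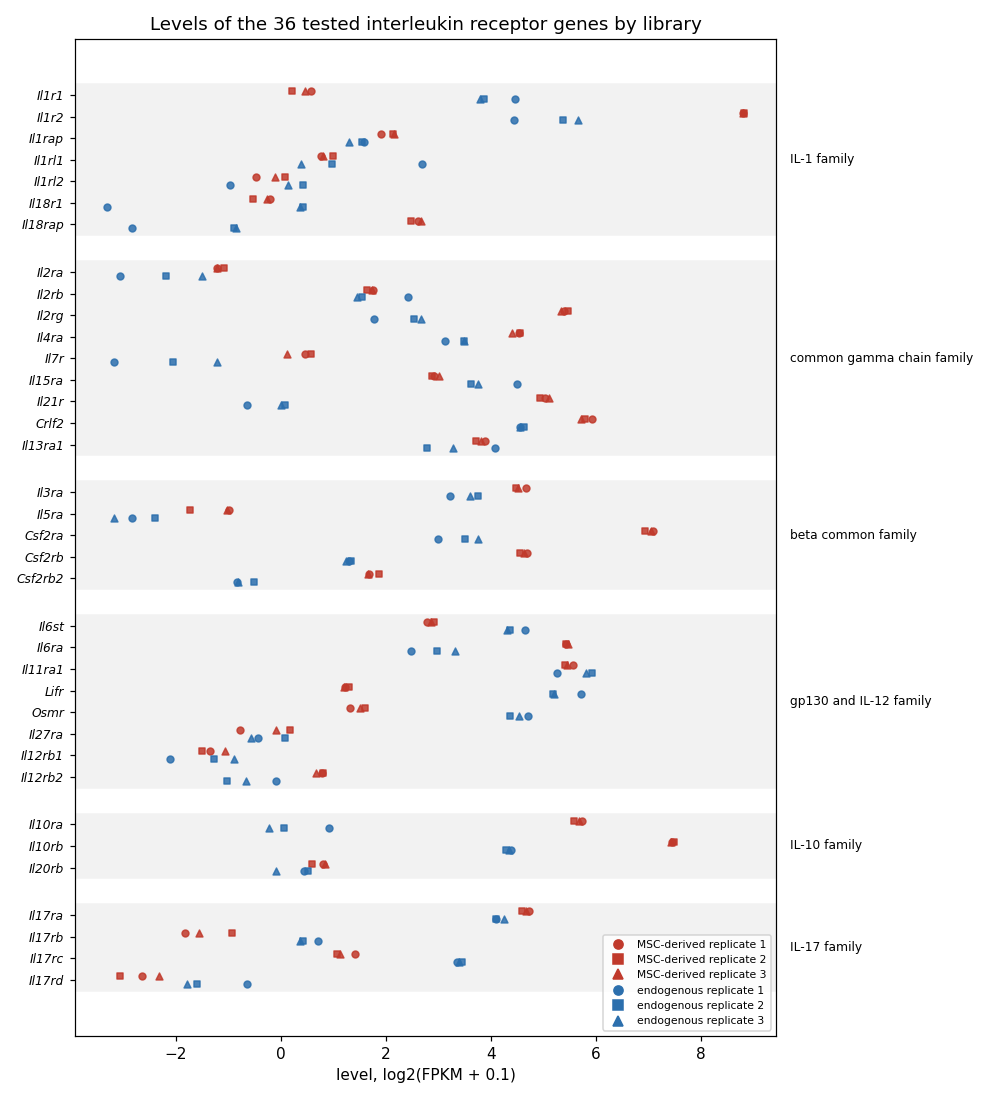
Levels of the 36 tested interleukin receptor genes, with log2(FPKM + 0.1) on the horizontal axis and the genes, grouped by receptor family, on the vertical axis. Each point is 1 library, red for the 3 MSC-derived and blue for the 3 endogenous libraries. *Il1r2* and *Il10rb* reached the right end in the MSC-derived cells, and the endogenous points of *Lifr*, *Il1r1* and *Osmr* lie to the right of the MSC-derived points of the same gene.

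**Figure D2:**
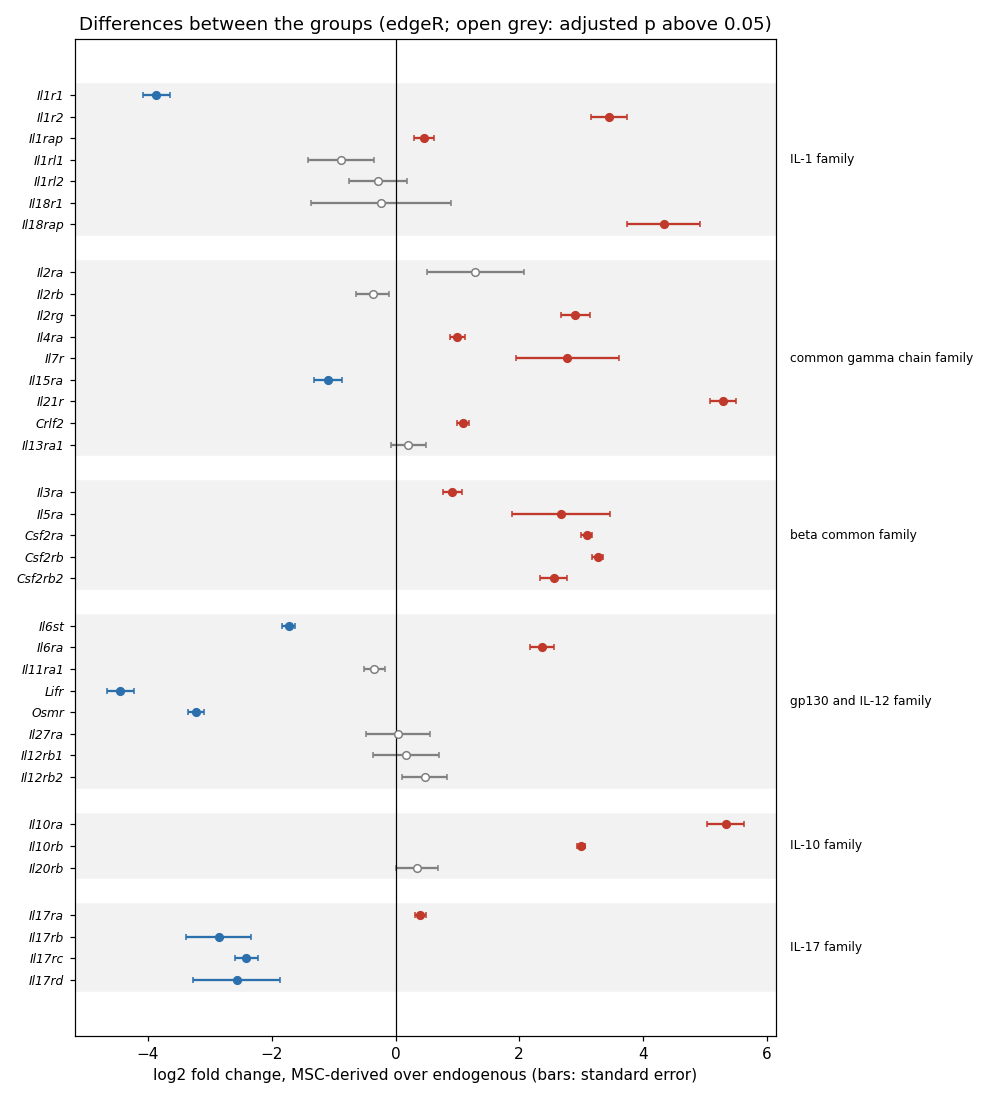
Log2 fold change of each of the 36 genes, MSC-derived over endogenous, by edgeR on expected counts of 3 libraries against 3. Bars show the approximate standard error, red and blue points have an adjusted p of 0.05 or less, and open grey points do not. All 5 genes of the beta common family lie to the right of 0, and 3 of 4 of the IL-17 family lie to the left. *Il5ra*, *Il17rb* and *Il17rd* passed the filter on low counts only through the group where they were higher.

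In the IL-1 receptor family, the decoy rose and the signalling receptor fell. *Il1r2* encodes the decoy, which binds IL-1 and has no signalling domain. It had 447, 454 and 447 FPKM in the MSC-derived libraries 1 to 3 and 21.6, 41.3 and 50.4 FPKM in the endogenous libraries 1 to 3. The groups did not overlap, and the log2FC was 3.45 (SE 0.29, adjusted p = 3.18e-05). *Il1r1* encodes the receptor through which IL-1 signals. It had 1.39, 1.05 and 1.27 FPKM in the MSC-derived libraries and 21.9, 14.6 and 13.7 FPKM in the endogenous libraries. Here all endogenous libraries were higher, and the log2FC was -3.87 (SE 0.22, adjusted p = 3.67e-06).

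Within a library, *Il1r2* therefore stood in a different ratio to *Il1r1* in the 2 groups. The ratio of their FPKM was 321, 432 and 352 in the MSC-derived libraries and 0.984, 2.84 and 3.68 in the endogenous libraries. The difference on the log2 scale was 7.39, with an SD over 3 libraries of 0.22 and 1.01. The exact two-sided permutation test gave p = 0.1, which is the smallest p that 3 against 3 libraries allow, so that this test cannot reach 0.05 for any of the ratios given here. The adjusted value over the 8 ratios formed was 0.114, and the ratio of *Il13ra2* to *Il13ra1*, was not formed because of a count of 0. The level of *Il1r2* was below that of *Il1r1* in endogenous replicate 1 and above it in the other 5 libraries.

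*Il1rap* encodes the accessory chain that completes the receptors for IL-1 and IL-33. Its level was 3.64, 4.3 and 4.34 FPKM in the MSC-derived libraries and 2.88, 2.82 and 2.36 FPKM in the endogenous ones. The groups did not overlap, but the log2FC was small, at 0.46 (SE 0.16, adjusted p = 0.0373). Of 10 alternative fits on the same libraries 7 made this call, with adjusted p-values from 0.0151 to 0.853, and 1 of 6 fits that left out a library made it. The log2FC was 0.04 with limma on log2(TPM + 1).

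*Il18rap*, the accessory chain for IL-18, was higher in the MSC-derived cells. It had 675, 602 and 614 expected counts there and 4, 41 and 44 in the endogenous libraries, which is 5.49 to 6.23 compared with 0.04 to 0.45 FPKM. The log2FC was 4.34 (SE 0.59, adjusted p = 5.01e-04). *Il18r1*, the chain that binds IL-18, had 31 to 40 counts in MSC-derived libraries and 0, 64 and 52 in the endogenous ones. It did not pass the test (log2FC -0.24, SE 1.13, adjusted p = 0.867). The groups overlapped because endogenous replicate 1 had no count of this gene, and without that library the log2FC was -0.88 (adjusted p = 0.0309).

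*Il1rl1*, which encodes the IL-33 receptor ST2, and *Il1rl2*, which encodes the IL-36 receptor, did not pass the test either. *Il1rl1* had 111 to 131 counts in MSC-derived libraries and 414, 138 and 92 in the endogenous ones, and endogenous replicate 1 was high (log2FC -0.88, SE 0.54, adjusted p = 0.196). *Il1rl2* had 60 to 85 and 37 to 116 counts (log2FC -0.28, SE 0.47, adjusted p = 0.624), and without endogenous replicate 1 its log2FC was -0.69 (adjusted p = 0.0247). The ratio of *Il1rl1* to *Il1rap* was 0.376 to 0.437 in the MSC-derived libraries and 2.2, 0.663 and 0.513 in the endogenous ones, a log2 difference of -1.13 (exact permutation p = 0.1, adjusted p = 0.114). *Il1rapl1* and *Il1rapl2*, related genes known from neurons, had at most 29 counts in any library and were not tested. *Il1rapl1* had 0 counts in all MSC-derived libraries and 19, 6 and 9 in the endogenous ones, and fits without the filter called it lower (adjusted p = 0.00343 with DESeq2 and 0.0137 with edgeR).

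Of the IL-1 receptor genes, 6 stand next to each other among protein-coding genes in RefSeq's GRCm38 annotation, in the order *Il1r2*, *Il1r1*, *Il1rl2*, *Il1rl1*, *Il18r1* and *Il18rap*. The genes at both ends were higher in the MSC-derived cells, *Il1r1* next to *Il1r2* was lower, and the 3 genes between *Il1r1* and *Il18rap* did not pass the test. Of the 47 members, 22 stand in 9 such runs of neighbours. *Osmr* and *Lifr* were both lower, whereas *Csf2rb2* and *Csf2rb*, as well as *Il4ra* and *Il21r*, were both higher.

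**Figure D3:**
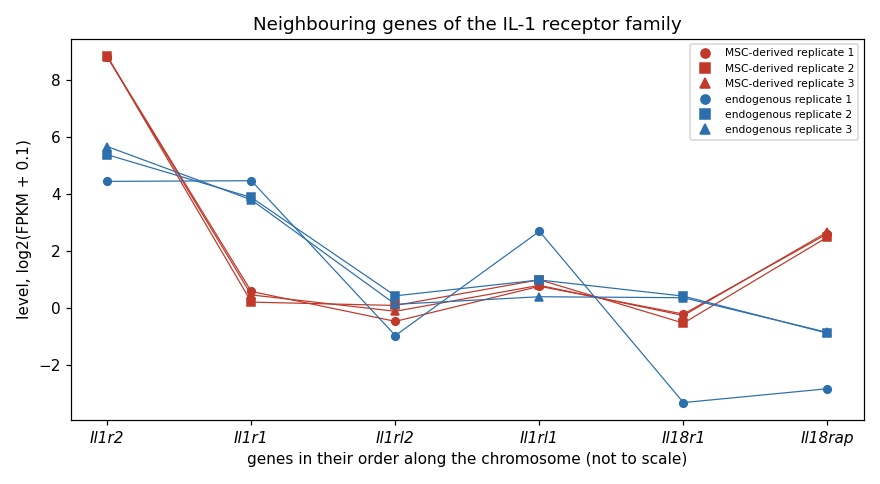
Levels of the 6 neighbouring IL-1 receptor genes, in their order along the chromosome on the horizontal axis and as log2(FPKM + 0.1) on the vertical axis. Each line is 1 library. The red lines of the 3 MSC-derived libraries lie above the blue lines at *Il1r2* and *Il18rap* and below them at *Il1r1*, while at the 3 genes between *Il1r1* and *Il18rap* the groups overlap.

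Sequences before the starts of some members of these runs are shown. They are the 250 bases upstream of a RefSeq transcript start (GRCm38.p6), for those of *Il1r2*, *Il1r1*, *Il18rap*, *Csf2rb2*, *Csf2rb*, *Osmr* and *Lifr* that lie outside every gene of the GENCODE M21 annotation. This left windows of *Il1r1*, *Il18rap* and *Csf2rb2*, which are not next to each other, so neighbours cannot be compared from them. The expression files were made on another build, mm9. Each is written 5′ to 3′ on the strand of the gene. The capitals in *Il18rap* mark the letters GAGGAAGT, letters of the kind that the blood cell factor PU.1 binds, and those in *Csf2rb2* mark a match to TTCNNNGAA, the spacing that STAT factors bind.
Il1r1 (lower; chr1:40224830-40225079, + strand): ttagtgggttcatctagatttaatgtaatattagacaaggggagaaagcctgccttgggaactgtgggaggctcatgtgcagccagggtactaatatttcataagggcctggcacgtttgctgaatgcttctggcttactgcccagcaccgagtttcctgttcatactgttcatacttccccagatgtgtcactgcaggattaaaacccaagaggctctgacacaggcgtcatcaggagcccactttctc
Il18rap (higher; chr1:40515112-40515361, + strand): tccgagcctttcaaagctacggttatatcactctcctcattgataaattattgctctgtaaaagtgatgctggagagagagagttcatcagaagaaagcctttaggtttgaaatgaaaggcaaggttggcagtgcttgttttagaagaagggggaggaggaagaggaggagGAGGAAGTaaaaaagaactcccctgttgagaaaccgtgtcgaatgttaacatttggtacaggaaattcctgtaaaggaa
Csf2rb2 (higher; chr15:78305722-78305971, - strand): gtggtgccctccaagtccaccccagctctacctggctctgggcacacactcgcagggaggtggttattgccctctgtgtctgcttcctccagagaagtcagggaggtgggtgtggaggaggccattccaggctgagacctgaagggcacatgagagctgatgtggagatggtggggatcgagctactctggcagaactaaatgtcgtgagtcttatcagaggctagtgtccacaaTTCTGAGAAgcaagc

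Of the members, 39 had such windows in the RefSeq table, 46 in all. Searched on both strands, GAGGAAGT stood in 1 of the 46 (2.17%), that of *Il18rap*, compared with 2.44% of all 32851 promoters. TTCNNNGAA stood in 6 (13%), those of *Csf2rb2*, *Il1r2* and *Il7r*, which were higher, and of *Il12rb2*, *Il18r1* and *Il31ra*, compared with 7.02% of all promoters. TGANTCA, the letters of AP-1 sites, stood in 6 (13%), those of *Il5ra*, which was higher, of *Il15ra* and *Il17rb*, which were lower, and of *Il13ra2*, *Il20ra* and *Il22ra1*, compared with 6.75% of all promoters. A shorter string, GAGGAAG, which every GAGGAAGT contains, stood in 9 (19.6%), compared with 10.6%. With the 50 bases after the start added, *Csf2rb2* gained a GAGGAAGT and *Osmr* a TGANTCA. The 4 strings, both windows and the genes shown were chosen after the expression values were seen, and a match is no evidence of binding. The median number of CpG was 14 in windows of the higher members and 10 in those of the lower members. It was 4.5 in all windows of members and 6 in all promoters.

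In the common gamma chain family, 5 of 9 genes tested were higher in the MSC-derived cells and 1 was lower. These are 55.6% and 11.1%, compared with 31.3% and 30.3% of all genes tested. Of the higher genes, *Il7r* passed the filter on low counts only through the MSC-derived libraries. *Crlf2*, *Il13ra1* and *Il13ra2*, for TSLP and IL-13, were grouped with this family. *Il2rg* encodes the gamma chain itself, which is shared by the receptors for IL-2, IL-4, IL-7, IL-9, IL-15 and IL-21. It had 42.0, 44.0 and 40.1 FPKM in the MSC-derived libraries and 3.32, 5.68 and 6.23 FPKM in the endogenous ones. All MSC-derived libraries were higher, with a log2FC of 2.91 (SE 0.23, adjusted p = 2.09e-05). In GENCODE M21, 27.5% of the 50-base stretches of its transcripts are also in the gene model *Gm20489*. Its expected counts were whole numbers in every library, so the deposited values show no division of its reads.

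*Il21r*, the receptor for IL-21, showed the largest difference of this family. Its level was 32.7, 30.4 and 34.2 FPKM in the MSC-derived libraries and 0.54, 0.96 and 0.90 FPKM in the endogenous ones, and the log2FC was 5.30 (SE 0.21, adjusted p = 6.45e-07). The level was under 1 FPKM in every endogenous library and over 30 FPKM in every MSC-derived library. Its neighbour *Il4ra*, the chain that binds IL-4 and takes part in IL-13 signalling, had 23.1, 23.3 and 21.2 FPKM and 8.66, 11.1 and 11.1 FPKM. It did not overlap between the groups either, with a log2FC of 1.00 (SE 0.12, adjusted p = 2.27e-04). The ratio of *Il2rg* to *Il4ra* was 1.81 to 1.89 in the MSC-derived libraries and 0.383 to 0.56 in the endogenous ones, a log2 difference of 1.96 (exact permutation p = 0.1, adjusted p = 0.114).

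*Crlf2* and *Il7r* encode the chains of the TSLP receptor, and *Il7r* also binds IL-7. *Crlf2* had 60.8, 55.0 and 52.4 FPKM in the MSC-derived libraries and 23.4, 24.6 and 23.3 FPKM in the endogenous ones, a log2FC of 1.09 (SE 0.10, adjusted p = 4.72e-05) without overlap. *Il7r* was much lower in level, with 67 to 98 counts in MSC-derived libraries and 1, 10 and 25 in the endogenous ones. It was called higher (log2FC 2.78, SE 0.83, adjusted p = 0.0215), but 4 of 6 fits that left out a library lost the call, with adjusted p-values up to 0.0792. These were the fits without MSC-derived replicate 1 (0.0723), 2 (0.0772) or 3 (0.0579) and without endogenous replicate 2 (0.0792).

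*Il15ra*, which presents IL-15 to neighbouring cells, was the gene of this family that fell. It had 7.46, 7.29 and 8 FPKM in the MSC-derived libraries and 22.4, 12.3 and 13.5 FPKM in the endogenous ones. The groups did not overlap, and endogenous replicate 1 was the highest (log2FC -1.09, SE 0.22, adjusted p = 0.00402). *Il13ra1*, which pairs with the IL-4 receptor chain, had 14.6, 13.0 and 14.0 FPKM in the MSC-derived libraries and 16.8, 6.81 and 9.58 FPKM in the endogenous ones. Endogenous replicate 1 lay above all MSC-derived libraries and the other 2 below, so that the gene did not pass the test (log2FC 0.21, SE 0.29, adjusted p = 0.563). Without that replicate the log2FC was 0.58 (adjusted p = 8.57e-05).

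The IL-2 chains *Il2ra* and *Il2rb* did not pass the test. *Il2ra*, known as CD25, had 31 to 37.1 counts in MSC-derived libraries and 2, 12 and 26.2 in the endogenous ones (log2FC 1.29, SE 0.78, adjusted p = 0.19). *Il2rb*, which also serves IL-15, had 3.01 to 3.27 FPKM and 2.62 to 5.25 FPKM (log2FC -0.37, SE 0.27, adjusted p = 0.267). *Il9r* had at most 13 counts and *Il13ra2*, the IL-13 decoy, at most 16 in any library, and neither was tested.

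In the beta common family, all 5 genes were higher in the MSC-derived cells, where 31.3% of all genes tested were higher. *Il5ra* among them passed the filter on low counts only through the MSC-derived libraries, so its direction was set by the filter. No gene's groups overlapped, where the counts of 39.9% of all genes tested were separate with the MSC-derived libraries higher. *Csf2ra*, which binds GM-CSF, had 135, 123 and 132 FPKM in the MSC-derived libraries and 7.86, 11.2 and 13.4 FPKM in the endogenous ones. *Csf2rb*, the beta chain shared by IL-3, IL-5 and GM-CSF, had 25.7, 23.4 and 24.6 FPKM and 2.34, 2.42 and 2.26 FPKM. The 2 chains of the GM-CSF receptor were thus higher by similar amounts, with log2FC values of 3.09 (SE 0.09, adjusted p = 2.18e-07) and 3.27 (SE 0.09, adjusted p = 1.63e-07). Their ratio within a library was 5.23 to 5.35 in the MSC-derived cells and 3.36, 4.64 and 5.93 in the endogenous cells. The log2 difference of the ratio was 0.22 (exact permutation p = 0.4, adjusted p = 0.4), and with expected counts in place of FPKM it was -0.19.

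*Csf2rb2* is a second beta chain that mice use for IL-3 alone. It had 3.11, 3.56 and 3.07 FPKM in the MSC-derived libraries and 0.46, 0.60 and 0.47 FPKM in the endogenous ones (log2FC 2.56, SE 0.22, adjusted p = 3.54e-05). It shares 18.4% of its 50-base transcript stretches with *Csf2rb*, and nearly all of their expected counts are not whole numbers, so that the division of reads between them is uncertain. *Il3ra*, the chain that binds IL-3, had 25.2, 22.02 and 22.7 FPKM and 9.23, 13.3 and 12.1 FPKM, a log2FC of 0.92 (SE 0.15, adjusted p = 0.00126). *Il5ra*, the eosinophil receptor for IL-5, was the lowest of the family, with 33.2, 15.4 and 29 counts and 3.45, 7.39 and 0.54 counts (log2FC 2.68, SE 0.79, adjusted p = 0.0198). Of 9 alternative fits of *Il5ra* on the same libraries 8 made the call, with adjusted p-values from 0.00709 to 0.0739. It was lost without MSC-derived replicate 1 (0.0939) or 3 (0.0912) and without endogenous replicate 3 (0.0552).

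In the gp130 and IL-12 family, the chains for LIF and oncostatin M and the shared chain fell, whereas the IL-6 binding chain rose. *Lifr*, the LIF receptor, had 2.24, 2.35 and 2.2 FPKM in the MSC-derived libraries and 52.4, 36.3 and 36.8 FPKM in the endogenous ones. With a log2FC of -4.45 (SE 0.22, adjusted p = 2.01e-06), it fell more than any other member tested. Its neighbour *Osmr*, the chain for oncostatin M and IL-31, had 2.39, 2.93 and 2.74 FPKM and 25.9, 20.4 and 23.2 FPKM (log2FC -3.23, SE 0.13, adjusted p = 7.23e-07). *Il6st* encodes gp130, with which both chains signal. It had 6.73, 7.41 and 7.16 FPKM in the MSC-derived libraries and 25.1, 20.5 and 19.7 FPKM in the endogenous ones (log2FC -1.73, SE 0.11, adjusted p = 8.39e-06). All endogenous libraries lay above all MSC-derived libraries for each of the 3 genes.

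*Il6ra*, which binds IL-6 and hands it to gp130, went the other way. Its level was 42.8, 43.2 and 43.9 FPKM in the MSC-derived libraries and 5.50, 7.76 and 9.79 FPKM in the endogenous ones, without overlap (log2FC 2.37, SE 0.20, adjusted p = 3.19e-05). The ratio of *Il6ra* to *Il6st* was 5.83 to 6.36 in the MSC-derived libraries and 0.219 to 0.497 in the endogenous ones, a log2 difference of 4.14. The binding chain was thus above gp130 in all MSC-derived libraries and below it in all endogenous libraries. The ratio of *Lifr* to *Il6st* was 0.307 to 0.333 compared with 1.77 to 2.09, and that of *Osmr* to *Il6st* was 0.355 to 0.395 compared with 0.997 to 1.18, with log2 differences of -2.58 and -1.50. Each of these 3 ratios had an exact permutation p of 0.1 and an adjusted p of 0.114.

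**Figure D4:**
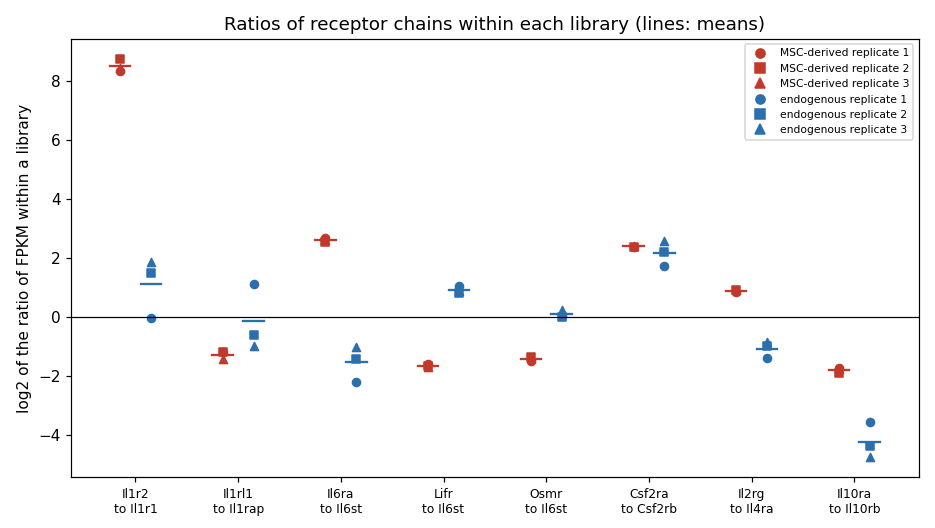
Ratios of 8 pairs of receptor chains within each library, with log2 of the ratio of FPKM on the vertical axis and the pair on the horizontal axis. Each point is 1 library, red for MSC-derived and blue for endogenous, and the short lines are group means. The groups overlap only for *Csf2ra* to *Csf2rb*. For *Il6ra* to *Il6st*, *Lifr* to *Il6st* and *Il2rg* to *Il4ra* the groups lie on opposite sides of 0, which marks equal FPKM.

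*Il11ra1*, the IL-11 chain, was the most abundant member in the endogenous cells by mean FPKM. It had 47.0, 42.7 and 43.6 FPKM in the MSC-derived libraries and 38.3, 60.9 and 56.1 FPKM in the endogenous ones. Endogenous replicate 1 lay below the MSC-derived libraries and the other 2 above, and the gene did not pass the test (log2FC -0.34, SE 0.17, adjusted p = 0.122). It was called lower with limma on log2(TPM + 1) (log2FC -0.74, adjusted p = 0.00195) and without endogenous replicate 1 (log2FC -0.57, adjusted p = 9.25e-08). Its near-identical copy *Il11ra2* had at most 20.1 counts and was not tested. Of the transcript stretches of *Il11ra1* 46.3%, and of *Il11ra2* 100%, are also in *Gm13305*, so that their counts are uncertain.

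The IL-12 and IL-27 chains were low in both groups. *Il12rb2*, the signalling chain for IL-12, had 187, 138 and 139 counts in the MSC-derived libraries and 157, 60.4 and 98.9 in the endogenous ones, which overlapped (log2FC 0.47, SE 0.37, adjusted p = 0.303). In FPKM it had 1.48 to 1.63 and 0.39 to 0.83 without overlap, and limma called it higher on log2(FPKM + 1) (adjusted p = 0.00212), log2(FPKM + 0.1) (adjusted p = 0.00565) and log2(TPM + 1) (adjusted p = 0.047). *Il12rb1*, the chain shared with IL-23, and *Il27ra*, the IL-27 receptor, had 27.5 to 53 counts in the MSC-derived and 13.7 to 54.6 counts in the endogenous libraries, with log2FC values of 0.17 and 0.04 that did not pass the test. *Il31ra* had at most 23.9 counts and *Il23r* at most 7 in any library, and they were not tested.

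In the IL-10 receptor family, both chains of the IL-10 receptor rose. *Il10ra*, which binds IL-10, had 53.3, 48.0 and 51.2 FPKM in the MSC-derived libraries and 1.78, 0.94 and 0.75 FPKM in the endogenous ones. Its log2FC of 5.34 was the largest of all members tested (SE 0.30, adjusted p = 3.53e-06). *Il10rb*, which is shared with the receptors for IL-22 and interferon lambda, had 175, 178 and 173 FPKM and 20.7, 19.4 and 20.1 FPKM (log2FC 3.0, SE 0.07, adjusted p = 9.13e-08). The groups did not overlap for either chain. The ratio of *Il10ra* to *Il10rb* was 0.269 to 0.306 in the MSC-derived libraries and 0.0374 to 0.0859 in the endogenous ones, a log2 difference of 2.43 (exact permutation p = 0.1, adjusted p = 0.114). Of the stretches of *Il10rb*, 13.6% are also in the gene model *Gm21970*.

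The chains for IL-19, IL-20, IL-22 and IL-24, best known from epithelia, had low counts, apart from the shared chain *Il10rb*. *Il20rb* had 75 to 92 and 48 to 72 counts and did not pass the test, although its groups did not overlap (log2FC 0.34, SE 0.34, adjusted p = 0.405). *Il20ra* was not tested: it had 0 counts in all MSC-derived libraries and 1, 15 and 41 in the endogenous ones, and fits without the filter called it lower (adjusted p = 0.00296 with DESeq2 and 0.0249 with edgeR). *Il22ra2*, a soluble protein that binds IL-22, had 14, 11 and 7 counts in the MSC-derived libraries and 0, 0 and 2 in the endogenous ones, and the same fits called it higher (adjusted p = 0.0362 and 0.0458). *Il22ra1* had 5 counts in 1 MSC-derived library and 0 in the other 5 libraries.

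In the IL-17 receptor family, 3 of 4 genes tested fell (75%, compared with 30.3% of all genes tested). Of these, *Il17rb* and *Il17rd* passed the filter on low counts only through the endogenous libraries, where they were higher. *Il17rc*, the chain for IL-17A and IL-17F, had 2.55, 2.0 and 2.07 FPKM in the MSC-derived libraries and 10.1, 10.8 and 10.4 FPKM in the endogenous ones (log2FC -2.41, SE 0.18, adjusted p = 1.49e-05). *Il17rb*, the receptor for IL-25, had 5, 12 and 8 counts and 65, 55 and 55 counts (log2FC -2.86, SE 0.52, adjusted p = 0.00221). *Il17rd*, also known as Sef, an inhibitor of FGF signalling, had 11, 4 and 17 counts and 102, 43 and 38 counts (log2FC -2.57, SE 0.71, adjusted p = 0.0157). All endogenous libraries were above all MSC-derived ones for each of the 3, but the call of *Il17rd* was lost without MSC-derived replicate 1 (adjusted p = 0.0664) or 2 (adjusted p = 0.0564).

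*Il17ra*, the chain that all these receptors share, showed the smallest log2FC of the called members. It had 26.2, 24.0 and 25.4 FPKM in the MSC-derived libraries and 16.9, 17.0 and 18.9 FPKM in the endogenous ones, a log2FC of 0.40 (SE 0.09, adjusted p = 0.00496). Its direction depends on the scale, since limma on log2(TPM + 1) gave -0.04 (adjusted p = 0.699). *Il17re*, the chain for IL-17C, had at most 21 counts in any library and was not tested.

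The ligands of these receptors were counted beside them. Of a list of 49 interleukins and related cytokines, 35 were in the table and 27 were tested, of which 11 were higher and 11 lower (40.7% each, compared with 31.3% and 30.3% of all genes tested), with a median log2FC of -0.52. Among those whose average log2 CPM was 3 or more, a limit kept for the genes named from the lists below, the largest rises were those of *Il1a* (log2FC 6.35, adjusted p = 7.35e-06) and *Ebi3*, a chain of IL-27 and IL-35 (5.51, adjusted p = 4.44e-06). The largest falls were those of *Il7* (-5.04, adjusted p = 1.38e-05) and *Il17d* (-4.10, adjusted p = 1.48e-06).

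Some ligands of receptors described above were looked up after those values were seen. They were picked without a rule and do not stand for the ligands as a set. Other ligands that were tested, such as those for the IL-11, IL-15 and IL-33 receptors, are not compared here. *Osm*, encoding oncostatin M, was higher in the MSC-derived cells, opposite in direction to *Osmr*. It had 90.6 to 91.7 FPKM, compared with 7.08 to 10.1 FPKM in the endogenous libraries (log2FC 3.32, adjusted p = 7.84e-07). *Lif* was lower in the MSC-derived cells, like its receptor, with 0.72 to 0.85 compared with 9.80 to 11.6 FPKM (log2FC -3.83, adjusted p = 6.05e-07). *Il10* was higher, like both chains of its receptor, with 17.0 to 20.4 compared with 0.71 to 1.08 FPKM (log2FC 4.25, adjusted p = 2.95e-06). *Il18* was higher, like *Il18rap*, with 189 to 200 compared with 5.67 to 7.0 FPKM (log2FC 4.92, adjusted p = 5.67e-08). *Il6* was lower while its binding chain was higher, with 15.7 to 16.3 compared with 57.8 to 107 FPKM (log2FC -2.42, adjusted p = 5.94e-05).

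Of the JAK-STAT transducers and inhibitors, all 28 in the table were tested, of which 9 were higher and 11 lower (32.1% and 39.3%, median log2FC -0.33), so that the share of higher genes was close to the 31.3% of all genes tested, and that of lower genes stood beside 30.3%. *Ptpn6*, encoding the phosphatase SHP-1 of blood cells, rose most (4.79, adjusted p = 2.45e-07). The feedback inhibitors *Socs2* (-2.88, adjusted p = 9.53e-07) and *Socs3* (-2.59, adjusted p = 4.72e-07) fell most. Of 24 adapters and kinases of IL-1 and IL-17 signalling, 12 were higher and 3 lower (50% and 12.5%, compared with 31.3% and 30.3% of all genes tested, median log2FC 0.54). With limma on log2(TPM + 1), 4 were higher and 7 lower, so that the balance of this list depends on the scale. The kinase genes *Irak4* (2.06, adjusted p = 0.00139) and *Irak2* (1.59, adjusted p = 5.04e-05) rose most. *Traf3ip2*, which encodes the IL-17 adapter ACT1 (-1.56, adjusted p = 0.00147), and *Nfkbiz*, a nuclear regulator of NF-kappaB (-1.18, adjusted p = 3.53e-06), fell most.

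Of 14 other cytokine receptors, 13 were tested, of which 8 were higher and 4 lower (median log2FC 0.71). These are 61.5% and 30.8%, compared with 31.3% and 30.3% of all genes tested, so that the lower share was close to that of all genes. The erythropoietin receptor gene *Epor* (4.56, adjusted p = 4.15e-06) and the G-CSF receptor gene *Csf3r* (3.49, adjusted p = 6.85e-06) rose most. The leptin receptor gene *Lepr* (-6.02, adjusted p = 1.42e-07) and *Cntfr*, a binding chain that works with LIFR and gp130 (-4.69, adjusted p = 9.56e-05), fell most.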

How the data were processed

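RNA of sorted Tomato+ cells was sequenced in 3 MSC-derived and 3 endogenous libraries. Per the submitters' processing notes, the authors used Bowtie2 2.2.5, RSEM 1.2.12 and the mm9 build, and whether counting used strand is not given in the sources used here. The authors deposited expected counts, FPKM and TPM per gene as estimated by RSEM. By their names, 18 columns were assigned to samples and used. Another 6 columns of single samples, holding a normalized count, and 8 of group averages were not used.

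Expected counts were rounded, which changed 20.6% of the values, and tested in edgeR 4.0.16 (R 4.3.3; TMM, filterByExpr, quasi-likelihood test, no block) with Benjamini-Hochberg adjustment over 14289 genes. Ratios used FPKM. Alternatives used DESeq2 1.42.0, limma 3.58.1 and other normalizations, filters, thresholds and libraries. The fit was tested on simulated counts. A first limit on the share of 4-fold changes recovered was not met and was lowered, so real changes can go uncalled. Members and lists were chosen with earlier results of these data known. Values per library are given for members with a mean of at least 10 FPKM in a group, for called members whose log2 fold change was 3 or more in size, with 10 counts or more in every library of the higher group, and for members whose call changes between fits. Shared stretches of 50 bases were counted in GENCODE M21 transcripts. Protein sequences were not used here, and the values of 1 gene of the lists are not reported here. P-values of the fits weigh a group difference against the variation between these libraries, which is estimated with information from all genes. Those of the ratios rest on permutations of the same libraries. Figures were drawn with matplotlib 3.10.9.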

Additional observations from a re-analysis of the deposited data

How the results depend on the processing

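Of the 25 receptor genes called, 20 (13 higher, 7 lower) were called in every fit that tested them, over 10 alternatives with the same libraries and 6 that left out a library each. The counts of higher and lower receptor genes ranged from 14 to 20 and from 7 to 14 when a library was left out. Without endogenous replicate 1 the lower count rose from 8 to 14, with 42 receptor genes tested in place of 36. Left-out libraries also moved the higher and lower counts of ligands (10 to 13 and 9 to 13), JAK-STAT genes (8 to 9 and 9 to 14), adapters (8 to 12 and 3 to 5) and other receptors (7 to 8 and 4 to 4). An adjusted p of 0.001 or less left 12 higher and 5 lower receptor genes, 7 higher and 7 lower ligands, 4 higher and 6 lower JAK-STAT genes, and 2 higher and 1 lower adapters. Asking for a log2 fold change of 1 or more in size left 5 lower JAK-STAT genes and 4 higher adapters. With limma on log2(TPM + 1), 4 adapters were higher and 7 lower, 5 other receptors were higher, and *Il17ra* changed sign (-0.04). The ratio of *Csf2ra* to *Csf2rb* changed sign with expected counts (-0.19), and the other ratios kept their direction. The difference in the summed TPM of all receptor genes, MSC-derived minus endogenous, went from 803.8 to -3.0 without *Il1r2*, *Il10rb* and *Csf2ra*, an alternative chosen after seeing the data. Scaling by library size alone shifted the median log2 fold change of all genes by 0.12. The cause of these changes was not tested. Apart from the main fit and the fit without endogenous replicate 1 (37.8% higher, 38.6% lower), the share of all genes called is not given. The counts of the other fits and thresholds therefore do not set receptor genes apart from other genes.

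The replicate numbers did not pair the samples, since same-numbered libraries are different mice and the correlations of their deviations from the group means were 0.01, 0.00 and 0.02. The fit with the replicate block called 15 receptor genes higher and 8 lower, and lost *Il1rap* (adjusted p = 0.101) and *Il5ra* (adjusted p = 0.0739). For this fit, too, the share of all genes called is not given.

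Genes with few counts limit what this depth can show, as the 11 receptor genes below the filter were not tested in the main comparison.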
